A study of Mus musculus with 6 samples.

Results

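The respiratory chain subunits encoded in the nucleus were followed in livers of mouse embryos that carry an editing-dead ADAR1. The members were the protein-coding genes outside the mitochondrial chromosome whose symbol begins with Ndufa, Ndufb, Ndufc, Ndufs, Ndufv, Uqcr, Cox4, Cox5, Cox6, Cox7, Cox8 or Atp5, together with Sdha, Sdhb, Sdhc, Sdhd and Cyc1. This rule found 92 of the 37576 genes in the counts table, or 92 of its 22643 protein-coding genes outside the mitochondrial chromosome, spread over 19 chromosomes. Of these, 84 encode subunits: 36 of complex I, 4 of complex II, 9 of complex III, 20 of complex IV and 15 of complex V. The other 8 share a symbol but encode no subunit. They include the complex I assembly factors Ndufaf1, Ndufaf2, Ndufaf3 and Ndufaf4, together with Atp5s and Atp5sl, which share the Atp5 prefix. The rest are the copy Atp5l-ps1 and Cox4nb, a neighbour of Cox4i1 that encodes a protein of the endoplasmic reticulum membrane.

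All 6 livers came from C57BL/6 embryos at embryonic day 12.5. There were 3 wild-type livers, number 2 from a male embryo and numbers 15 and 17 from females. The 3 others, numbers 6, 16 and 19, came from male embryos and carry the editing-deficient form of ADAR1 that the labels name E861A. Sex was therefore partly tied to genotype, and wild type 2 was the only male control. A fold change from a fit with sex as a covariate thus sets the E861A livers against wild type 2 alone. ADAR1 turns adenosine into inosine in double-stranded RNA. RNA was taken from a suspension of the whole liver, so a value is an average over red cell precursors, hepatoblasts and the other cells present. The labels name no litter, so the p-values measure the spread between these 6 samples. Between 35280460 (E861A 16) and 43733715 (wild type 15) reads were counted per library.

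The respiratory chain sits in the inner mitochondrial membrane. Complexes I and II take electrons from NADH and succinate, complex III passes them to cytochrome c, complex IV hands them to oxygen, and complex V, the ATP synthase, uses the proton gradient built by complexes I, III and IV. Most subunits are encoded in the nucleus and imported, and a small core of complexes I, III, IV and V is encoded in mitochondrial DNA. Red cell precursors rely on mitochondria for haem synthesis until they lose them late in maturation. Several subunits of complex IV come in a ubiquitous form and a form made mainly in muscle, lung or testis.

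The transcription factors NRF1, GABPA (of the ETS family) and YY1 are known regulators of nuclear respiratory chain genes, so the windows of 300 bases around the annotated start, from RefSeq on GRCm38.p6, were searched for a core motif of each on both strands. A window was found for 74 of the 92 members. Those without one included Atp5a1, Atp5l-ps1, Cox4i1, Cox4i2, Cox4nb, Cox6a2, Cox6c, Cox8c, Cyc1, Ndufa2, Ndufa4l2, Ndufb9, Ndufs1, Sdhc, Uqcrb, Uqcrc2 and Uqcrq. The 4 windows below were picked by hand because they hold these motifs. They belong to Uqcrh, which fell, and Atp5k, which lay just outside the threshold. The others are of Cox6a1, the ubiquitous partner of Cox6a2, and Ndufs4, a complex I gene that was not called. Capitals mark a motif match or its reverse complement, and each window is written 5′ to 3′ on the minus strand of the genome, the strand of the gene.
Uqcrh, chr4:116075021-116075320: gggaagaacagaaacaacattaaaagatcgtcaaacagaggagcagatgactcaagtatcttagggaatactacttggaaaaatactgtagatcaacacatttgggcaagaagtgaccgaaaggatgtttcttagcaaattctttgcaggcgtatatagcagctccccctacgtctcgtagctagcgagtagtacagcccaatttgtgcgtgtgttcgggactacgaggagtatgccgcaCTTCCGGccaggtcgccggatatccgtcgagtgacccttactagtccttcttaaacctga
Atp5k, chr5:108434350-108434649: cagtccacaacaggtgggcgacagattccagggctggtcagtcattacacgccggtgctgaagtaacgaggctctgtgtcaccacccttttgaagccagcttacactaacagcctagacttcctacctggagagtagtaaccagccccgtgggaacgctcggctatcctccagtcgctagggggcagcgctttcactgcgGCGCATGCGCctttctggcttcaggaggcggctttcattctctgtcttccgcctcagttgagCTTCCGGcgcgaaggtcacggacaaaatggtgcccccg
Cox6a1, chr5:115348909-115349208: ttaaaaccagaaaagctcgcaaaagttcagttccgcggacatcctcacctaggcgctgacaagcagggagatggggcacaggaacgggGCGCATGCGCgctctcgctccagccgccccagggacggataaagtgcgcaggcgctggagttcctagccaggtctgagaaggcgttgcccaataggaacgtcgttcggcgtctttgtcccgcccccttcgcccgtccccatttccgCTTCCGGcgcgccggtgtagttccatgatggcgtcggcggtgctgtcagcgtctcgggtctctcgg
Ndufs4, chr13:114388045-114388344: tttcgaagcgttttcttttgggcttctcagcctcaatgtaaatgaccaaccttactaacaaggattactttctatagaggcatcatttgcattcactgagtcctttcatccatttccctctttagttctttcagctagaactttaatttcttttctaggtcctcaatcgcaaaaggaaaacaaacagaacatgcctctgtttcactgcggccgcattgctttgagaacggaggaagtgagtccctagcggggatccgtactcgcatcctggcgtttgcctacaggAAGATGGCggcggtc
Uqcrh held the ETS motif beginning 10 bases before the start. Atp5k held the NRF1 motif 50 bases before the start and the ETS motif at base 12 after it. Cox6a1 held the NRF1 motif 162 bases before and the ETS motif 16 bases before the start, and Ndufs4 held the YY1 motif at base 35 after it. In Atp5k and Cox6a1 the NRF1 capitals are 2 overlapping matches, 1 on each strand, since the motif is nearly its own reverse complement.

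The NRF1 core GCGCATGCG stood in 9 of the 74 member windows, 12.2%, against 3.62% of the windows of the 12114 tested genes that had one and 1.95% of all 27025 windows. The YY1 core AAGATGGC stood in 11, 14.9%, against 4.71% and 3.19%. The ETS core CCGGAAG stood in 17, 23%, against 17.7% and 9.93%. At least 1 of the 3 motifs was found in 32 member windows, 43.2%, against 24% of tested genes. NRF1 matches were found, for example, in Uqcr11, Uqcrc1, Ndufa8 and Atp5g2, and YY1 matches in Ndufs6, Ndufs7, Ndufa9, Atp5f1 and Atp5sl. A match describes the letters in the window and is no measure of binding.

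Levels in wild-type liver were compared per length, as CPM (counts scaled to library size) per kilobase of exon, or RPKM. Among subunits that are no tissue isoform, ATP synthase and complex IV genes stood highest. Atp5b, the catalytic beta subunit, had a mean of 440.0 RPKM ± 84.48 (SD, n = 3), followed by Cox4i1 with 424.2 ± 60.46, Atp5a1, the alpha subunit, with 392.5 ± 59.86, and Cox6b1 with 375.5 ± 24.46. The SDs of these neighbours in the order overlap. Median levels were 52.21 RPKM for complex I, 66.77 for complex II, 135.9 for complex III, 222.5 for complex IV and 135.8 for complex V. Within complex I the highest was Ndufb9, an accessory subunit, with 183.3 RPKM ± 17.71 (SD, n = 3), and the lowest was Ndufb2 with 1.545 ± 0.1449. The exon model of Ndufb2 spans 5628 bases, which lowers its value per length. Its mean before length scaling, 8.694 CPM, was also the lowest of complex I, with Ndufb6 next at 25.2 CPM. Complex II ran from Sdhc at 34.32 to Sdhd at 165.1 RPKM, and complex III from Uqcrq at 41.22 to Cyc1, cytochrome c1, at 170.6. These low ends depend on exon length too. Before length scaling Sdhb, at 107.8 CPM, lay below Sdhc at 111.5, and Uqcrb, at 69.7, below Uqcrq at 75.48.

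**Figure D1:**
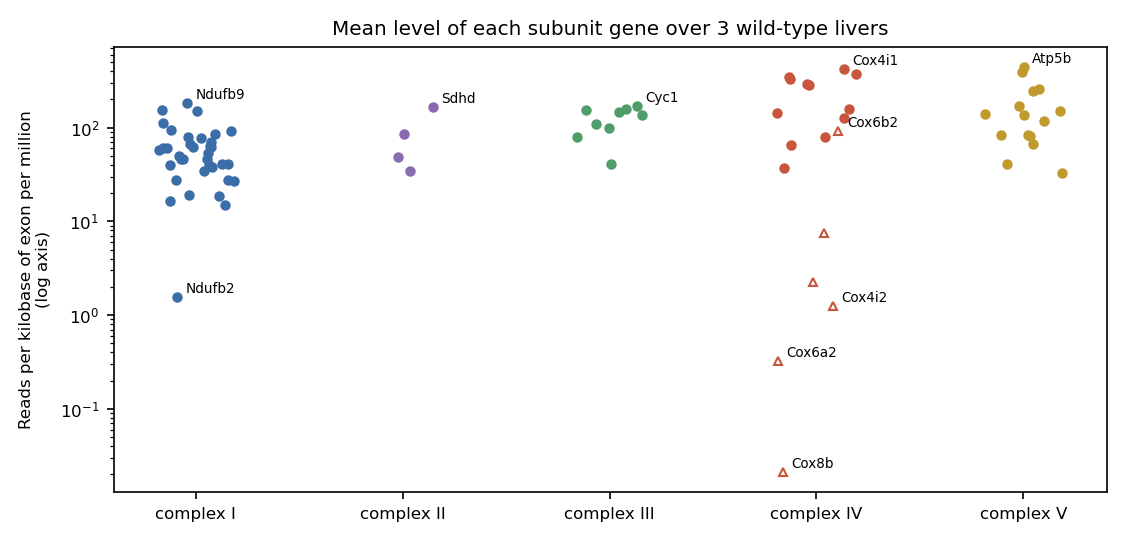
Mean RPKM (log axis) of each subunit gene over 3 wild-type livers, by complex, with open triangles for tissue isoforms of complex IV. Atp5b and Cox4i1 stand at the top with 440.0 and 424.2 RPKM, Ndufb2 is the lowest complex I gene at 1.545, and Cox7b2 and Cox8c are not drawn because they had no read in wild type.

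Most of the respiratory chain did not change detectably in E861A liver. Of the 92 members, 88 had enough reads for the test, and 3 were higher, 1 was lower and 84 were not called by edgeR's quasi-likelihood test at a Benjamini-Hochberg adjusted p under 0.05. Over all 16511 tested genes, 7.77% were called higher and 4.26% lower, so the members' counts lay below the background in both directions. The 3 higher genes were Cox6a2 and Cox4i2, tissue isoforms of complex IV, and Atp5sl, which encodes no subunit. The lower gene was Uqcrh, the hinge protein of complex III. The median log2 fold change over the 88 members was -0.06, with 37 above 0 and 51 below, and over all tested genes it was 0.04. The median absolute log2 fold change was 0.18 in the members and 0.32 in all tested genes.

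The intervals show, gene by gene, how large a change the spread between livers would allow in the fit without sex. They do not cover a shift tied to sex or to wild type 2. For 83 of 88 members, the 95% interval of the fold change lay within a 2-fold change in either direction, which held for 53.7% of all tested genes. Among the 76 subunits that are no tissue isoform, 75 had such an interval, 1 (Uqcrh) was called, and log2 fold changes ran from -0.72 to 0.48. All E861A livers stood above all wild-type livers in 7 of the 88 members and below them in 5, against 19.4% and 14.5% of all tested genes. An unadjusted p under 0.05 was found for 12 members, against 27.7% of all tested genes. The 4 members with too few reads for the test were Cox8c, with 0 reads in all 6 libraries, Cox8b and Cox7b2, with 1 read each, and Atp5l-ps1, with 4 wild-type reads and 1 from E861A. In bulk RNA, fewer cells of a type and less RNA per cell cannot be told apart, here and in each result that follows.

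**Figure D2:**
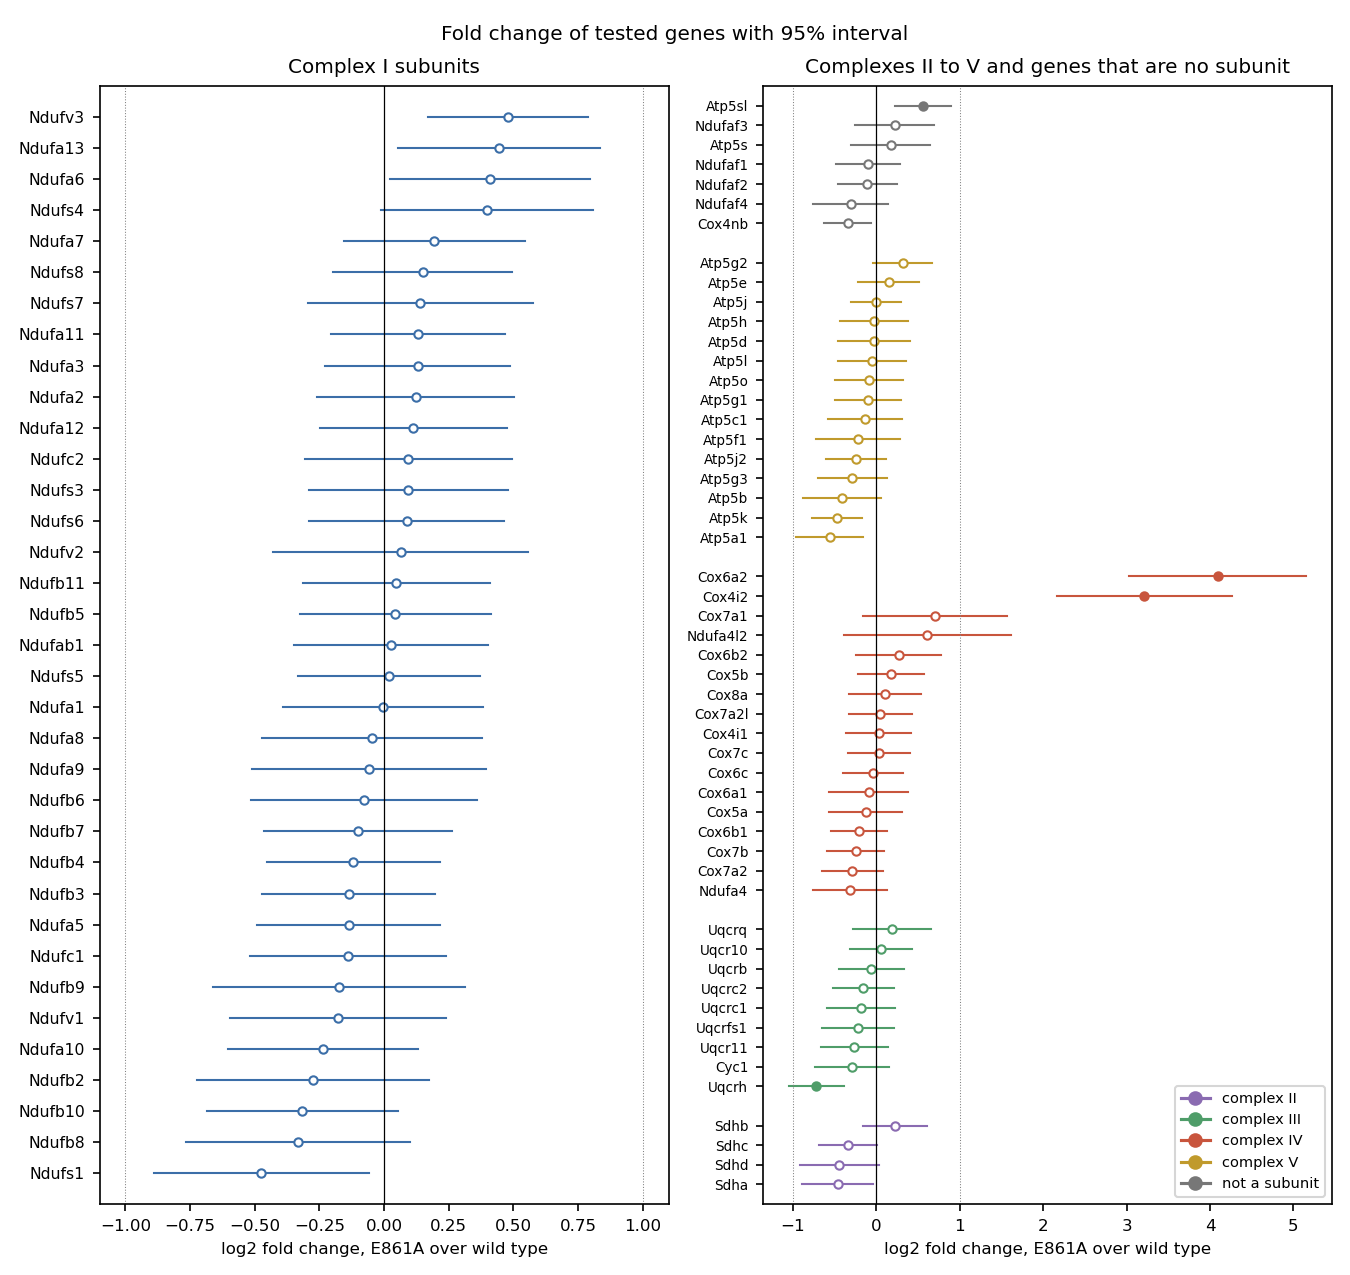
Log2 fold change of the tested members, E861A over wild type, with its 95% interval, for all but 1 complex I gene that is not drawn, complex I on the left and complexes II to V with the genes that are no subunit on the right. Cox6a2 (4.09) and Cox4i2 (3.22) stand far from the others, while the subunits that are no tissue isoform lie between -0.72 and 0.48.

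Complex I, NADH dehydrogenase, had 0 of its 36 subunits called by edgeR, with 4 at an unadjusted p under 0.05. Their median log2 fold change was 0.02, which became -0.02 with RLE scaling or DESeq2 and 0.19 with sex as a covariate, and all 36 intervals lay within a 2-fold change. The 7 core subunits, among them those that hold the flavin and the iron-sulphur centres, ran from -0.47 to 0.15. Ndufs1, the largest iron-sulphur subunit, lay lowest, with 134.5, 167.1 and 166.2 CPM in wild type 2, 15 and 17, against 137.2, 102.9 and 96.73 in E861A 6, 16 and 19. The groups overlapped through E861A 6, which lay above wild type 2, and the log2 fold change was -0.47 ± 0.18 (SE; adjusted p = 0.132, edgeR).

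Among the 29 accessory subunits, Ndufv3, a small subunit of the NADH-oxidising flavoprotein arm, came nearest to the threshold. It had 52.01, 55.58 and 59.4 CPM in wild type 2, 15 and 17, against 74.3, 86.05 and 72.39 in E861A 6, 16 and 19. Each E861A liver lay above each wild-type liver. The log2 fold change was 0.48 ± 0.13 (SE), and its adjusted p was 0.0555 in edgeR. It was called in 3 of 14 fits, with an adjusted p of 0.0486 in DESeq2 and, in edgeR, 0.0265 with upper quartile scaling and 0.0448 with at least 1 CPM in 3 libraries. Ndufv3 is called in the authors' deposited table, with a log2 fold change of 0.49 and an adjusted p of 0.0466. Ndufa13 (0.45), Ndufa6 (0.41) and Ndufs4 (0.40), an accessory subunit needed for a stable complex, had the next positive log2 fold changes, none called. Ndufb9 had a log2 fold change of -0.18.

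Complex II, succinate dehydrogenase, has no subunit of mitochondrial origin, and 0 of its 4 genes were called by edgeR, with 1 at an unadjusted p under 0.05. Sdha, the flavoprotein, had 271.0, 363.4 and 360.6 CPM in wild type 2, 15 and 17, against 283.7, 226.2 and 212.1 in E861A 6, 16 and 19. Sdhd, a membrane anchor, had 178.5, 226.1 and 233.0 CPM in wild type, against 199.3, 142.4 and 127.5 in E861A in the same order. In both genes E861A 16 and 19 lay below all wild-type livers and E861A 6 lay above wild type 2. The log2 fold changes were -0.46 for Sdha, -0.44 for Sdhd and -0.34 for Sdhc, the other anchor, and 0.22 for Sdhb, the iron-sulphur subunit.

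Complex III held the called decrease. Uqcrh (ENSMUSG00000063882, chromosome 4, 115739570 to 115747676 on NCBIM37, minus strand) encodes the acidic hinge protein that helps cytochrome c1 meet cytochrome c. It had 159.1, 172.1 and 173.1 CPM in wild type 2, 15 and 17, against 116.3, 92.59 and 97.96 in E861A 6, 16 and 19. The groups did not overlap, and the means were 168.1 ± 7.824 and 102.3 ± 12.4 CPM (SD, n = 3 each). The log2 fold change was -0.72 ± 0.14 (SE), with a 95% interval from -1.05 to -0.39 and an adjusted p of 0.0178 in edgeR. The call was made in 9 of 14 fits. The adjusted p was 0.122 with sex as a covariate and 0.308 in male livers alone. It was 0.0618 when wild type 15 was left out, 0.11 for wild type 17 and 0.0748 for E861A 16, and the log2 fold change stayed between -0.82 and -0.63 in every fit. Of 23 erythroid markers, 11 were called lower and 0 higher, against 4.26% of all tested genes called lower, and no marker was at 0. Their summed level was 28120, 66840 and 37340 CPM in wild type 2, 15 and 17, against 24670, 24120 and 22340 in E861A 6, 16 and 19. The sum is weighted to the most abundant of these markers, and their part in the fall of Uqcrh was not tested. Lrrc41, which starts 198 bases away on the other strand, had a log2 fold change of -0.31 and was not called.

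The other 8 complex III genes were not called. Cyc1 had 152.5, 243.1 and 215.6 CPM in wild type 2, 15 and 17, against 167.5, 178.2 and 154.2 in E861A 6, 16 and 19, so the 2 ranges overlapped through wild type 2, and its log2 fold change was -0.29 ± 0.19 (SE). Uqcr11, a small accessory subunit, had a log2 fold change of -0.26 ± 0.17 (SE). With sex as a covariate both signs turned, to 0.13 and 0.035. The 2 large core proteins stood at -0.18 (Uqcrc1) and -0.16 (Uqcrc2).

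Complex IV, cytochrome c oxidase, held the 2 called increases. Cox6a2 (ENSMUSG00000030785, chromosome 7, 135348950 to 135349880 on NCBIM37, minus strand) encodes the heart and skeletal muscle form of subunit 6A. It had 0.115, 0.3128 and 0.2118 CPM in wild type 2, 15 and 17, against 2.718, 4.827 and 3.434 in E861A 6, 16 and 19. Each E861A liver lay above each wild-type liver, on 25 reads summed over wild type and 443 over E861A. The log2 fold change was 4.09 ± 0.46 (SE), or 17.04-fold, with a 95% interval of 3.03 to 5.15 on the log2 scale, and its adjusted p was 0.00137 in edgeR. It was called in 14 of 14 fits. Cox6a2 shares 66 exon bases, 10.03% of its exons, with Itgad on the other strand. Itgad held 7 reads in wild type and 20 in E861A, and how reads in the shared bases were assigned is not known.

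Cox4i2 (ENSMUSG00000009876, chromosome 2, 152579909 to 152590773 on NCBIM37, plus strand) encodes the form of subunit 4 best known from lung, whose expression responds to oxygen. It had 1.081, 0.4693 and 1.377 CPM in wild type 2, 15 and 17, against 6.217, 12.73 and 8.335 in E861A 6, 16 and 19. The groups did not overlap, on 117 reads summed over wild type and 1095 over E861A. The log2 fold change was 3.22 ± 0.46 (SE), 9.29-fold, and its adjusted p was 0.00421 in edgeR. The call was made in 12 of 14 fits, with an adjusted p of 0.0854 when sex was a covariate and 0.0696 in male livers alone, at log2 fold changes of 3.07 and 3.08. Bcl2l1, which lies 2279 bases away on the other strand, stood at -0.80 and was not called.

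Both genes stayed minor beside their ubiquitous partners. Cox4i2 made up 0.382, 0.125 and 0.395% of the summed RPKM of Cox4i1 and Cox4i2 in wild type 2, 15 and 17, against 1.65, 3.47 and 2.7% in E861A 6, 16 and 19. Cox6a2 made up 0.0692, 0.125 and 0.0921% of the pair with Cox6a1 in wild type, against 1.14, 2.34 and 1.98% in E861A in the same order. The partners themselves were not called: Cox4i1 had a log2 fold change of 0.03 ± 0.17 (SE), which was -0.01 with DESeq2 or RLE scaling, and Cox6a1 -0.09 ± 0.20 (SE), which was 0.28 with sex as a covariate.

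**Figure D3:**
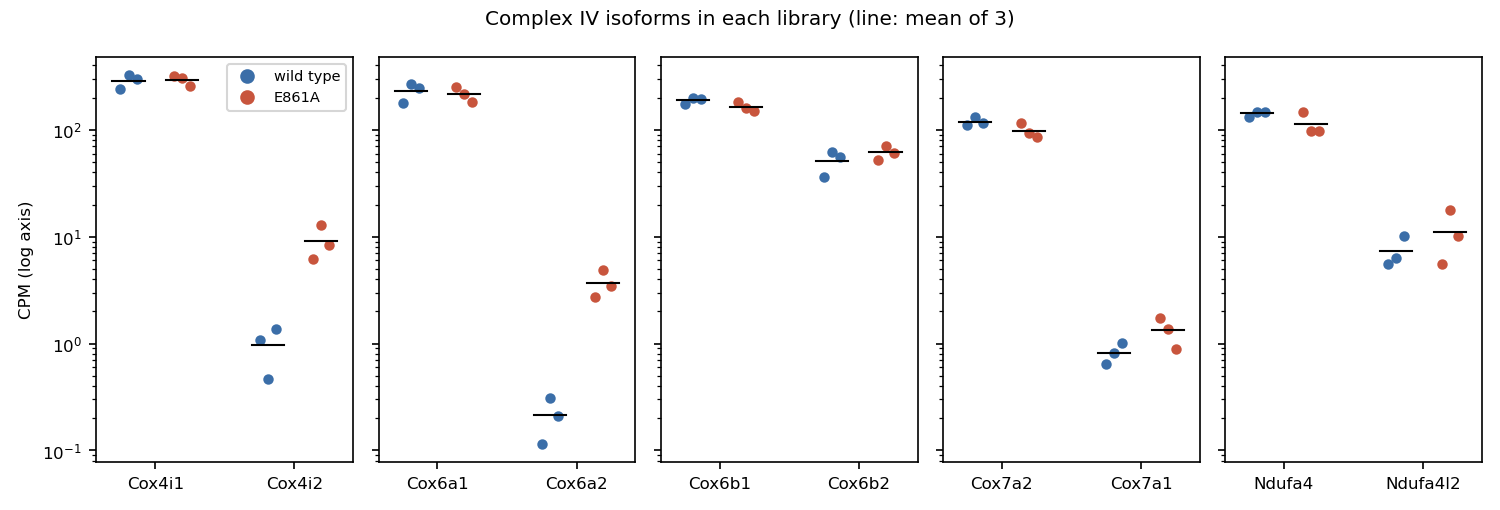
CPM (log axis) of tissue isoforms of complex IV and their ubiquitous partners in each of 6 libraries, with a line at the mean of 3. Cox4i2 and Cox6a2 stand higher in all E861A livers than in all wild-type livers, at 9.094 and 3.66 CPM on average, while Cox4i1 and Cox6a1 overlap between genotypes.

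The other tissue isoforms were not called. Cox7a1, the muscle form of subunit 7A, stood at 0.6438, 0.8082 and 1.006 CPM in wild type 2, 15 and 17, against 1.749, 1.355 and 0.8969 in E861A 6, 16 and 19, overlapping through E861A 19, with a log2 fold change of 0.70 ± 0.37 (SE). Ndufa4l2, a relative of Ndufa4 known from hypoxic cells, had 5.518, 6.283 and 10.06 CPM in wild type, against 5.579, 17.62 and 10.19 in E861A, and 0.61 ± 0.43 (SE). Its higher mean in E861A rested mostly on E861A 16, without which the log2 fold change was 0.039. Cox6b2, the testis form of subunit 6B, was well expressed in both genotypes and made up 15.8, 22.3 and 20.5% of the pair with Cox6b1 in wild type, against 20.8, 29.0 and 27.1% in E861A, at a log2 fold change of 0.27 ± 0.22 (SE). This value was 0.06 when wild type 2 was left out, 0.094 for E861A 16 and 0.434 for wild type 15. A sex covariate gave 0.774, and Cox6b2 was called in 0 of 14 fits.

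Among the 12 complex IV genes that are no tissue isoform, 0 were called by edgeR and 0 had an unadjusted p under 0.05. Cox7a2 had a log2 fold change of -0.29, Cox7b -0.24, Cox6b1 -0.21, Cox8a 0.11 and Cox7a2l, which takes part in joining complexes III and IV, 0.05. Ndufa4, named for complex I but now counted in complex IV, stood at -0.32 ± 0.19 (SE). When E861A 6 was left out it was called, at -0.55 and an adjusted p of 0.0477 in edgeR.

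Marker genes of other cell types and states were read beside the 2 called isoforms, against 7.77% of tested genes called higher and 4.26% lower. Hepatoblast markers had 8 of 20 called higher and 0 lower, with summed levels of 17150 to 21530 CPM in wild type and 21360 to 31150 in E861A. Endothelial markers had 3 of 13 higher and 1 lower (596.0 to 749.7 against 650.7 to 904.3 CPM), and mesenchymal markers 1 of 16 higher and 0 lower (949.8 to 2721 against 1441 to 2646 CPM), a share below that of all tested genes. Macrophage markers had 2 of 14 higher and 1 lower (423.5 to 502.4 against 402.4 to 546.2 CPM). Erythroid markers, with 11 of 23 lower, had log2 fold changes below 0 in all 23. Genes that respond to tissue dissociation had 7 of 13 higher, at 273.4 to 546.2 CPM in wild type and 771.5 to 1500 in E861A. Genes of the integrated stress response had 9 of 16 tested higher and 0 lower, with a median log2 fold change of 1.60, at 1635 to 2519 CPM in wild type and 2461 to 3240 in E861A. Interferon-stimulated genes had 25 of 25 higher, at 168.8 to 246.4 CPM in wild type and 9379 to 12830 in E861A. No gene of these lists was at 0 in all libraries, and their part in the rise of Cox4i2 and Cox6a2 was not tested.

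Complex V, the ATP synthase, had 0 of 15 genes called by edgeR, 2 at an unadjusted p under 0.05 and 13 log2 fold changes below 0. Over all tested genes 7717 of 16511 lay below 0. The median log2 fold change of complex V was -0.097, and 0.011 with sex as a covariate. Per length, the 2 highest genes of complex V, Atp5b and Atp5a1, lay among those furthest below 0. The next highest, Atp5l at 255.5 RPKM and Atp5g2 at 245.8 RPKM, had log2 fold changes of -0.06 and 0.32. Atp5a1 had 1015, 1358 and 1319 CPM in wild type 2, 15 and 17, against 934.5, 798.8 and 771.8 in E861A 6, 16 and 19. Each E861A liver lay below each wild-type liver, and the log2 fold change was -0.56 ± 0.18 (SE; adjusted p = 0.0807, edgeR). Atp5a1 was called in 3 of 14 fits, with an adjusted p of 0.00777 in DESeq2 and, in edgeR, 0.0369 with at least 1 CPM in 3 libraries and 0.0315 when wild type 2 was left out, while with sex as a covariate its log2 fold change was -0.28. Atp5b had 1457, 2128 and 2008 CPM in wild type, against 1633, 1351 and 1218 in E861A, overlapping through wild type 2, at -0.41 ± 0.20 (SE), and at -0.06 with sex as a covariate.

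Atp5k, subunit e of the membrane part, which helps the synthase form dimers, had 97.31, 108.0 and 106.0 CPM in wild type 2, 15 and 17, against 81.41, 75.54 and 68.06 in E861A 6, 16 and 19. The groups did not overlap. The log2 fold change was -0.47 ± 0.13 (SE), with an adjusted p of 0.0569 in edgeR, just outside the threshold, as Ndufv3 was. It was called in 4 of 14 fits, with an adjusted p of 0.0101 in DESeq2 and, in edgeR, 0.0417 with upper quartile scaling, 0.0285 with at least 1 CPM in 3 libraries and 0.0457 when wild type 2 was left out. The 3 genes for the same c-ring subunit did not move together, with Atp5g2 at 0.32, Atp5g3 at -0.29 and Atp5g1 at -0.10. Atp5g2 stood at 141.6, 165.1 and 170.4 CPM in wild type, against 219.8, 198.0 and 176.1 in E861A, without overlap, and was not called.

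Of the 7 tested genes that encode no subunit, Atp5sl was called. It was named after its value was seen. Atp5sl had 14.16 ± 0.9482 CPM in wild type and 20.86 ± 1.48 in E861A (SD over 3 livers). Its log2 fold change was 0.56 ± 0.14 (SE), and its adjusted p was 0.043 in edgeR. It was called in 5 of 14 fits and lost its call, among others, without any 1 of wild type 2, 15 and 17 or E861A 16 and 19, at log2 fold changes from 0.45 to 0.61. The 4 Ndufaf genes ran from -0.30 (Ndufaf4) to 0.22 (Ndufaf3).

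The members moved together between livers of the same genotype. Wild type 2 was the lowest wild-type liver in 84 of 88 members, E861A 6 the highest E861A liver in 76 and E861A 19 the lowest in 79. The median over members of the log2 level against each gene's mean was -0.15, 0.14 and 0.09 in wild type 2, 15 and 17, against 0.20, -0.05 and -0.22 in E861A 6, 16 and 19. Over all tested genes the same medians lay between -0.03 and 0.08. Wild type 2 and E861A 19 were thus the low livers and E861A 6 the high one, and genotype did not order them.

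**Figure D4:**
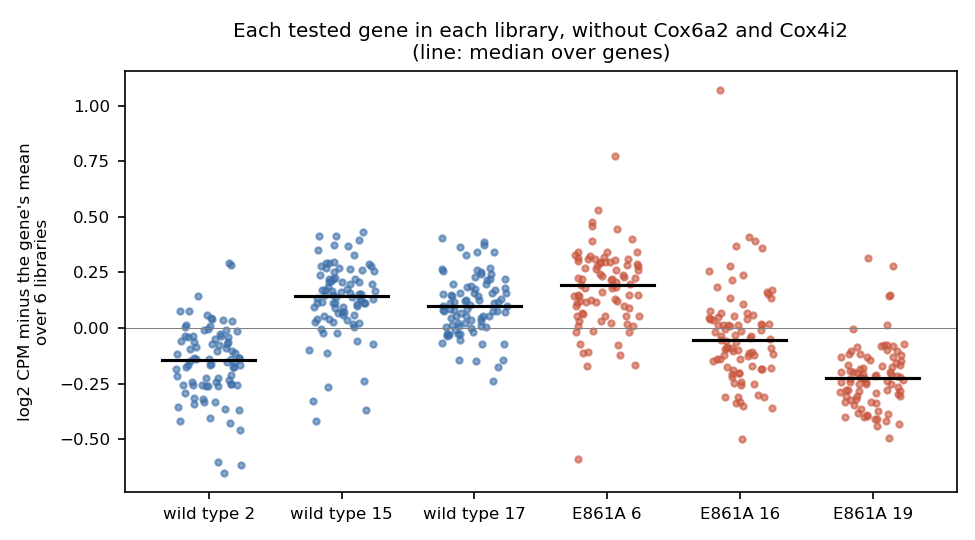
Log2 CPM of each of 86 tested members (Cox6a2 and Cox4i2 left out) minus that gene's mean over 6 libraries, with a line at the median. Wild type 2 and E861A 19 lie mostly below 0, and wild type 15, wild type 17 and E861A 6 mostly above.

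Lists of mitochondrial genes were compared by summed level, in which abundant genes weigh most, and not by the median used above. By this measure the 84 nuclear subunits stood at 10550, 13510 and 13070 CPM in wild type 2, 15 and 17. In E861A 6, 16 and 19 they stood at 12620, 10700 and 9563 CPM. Wild type 2 and E861A 19 were the lowest of their genotype here too, but E861A 6 lay below wild type 15. Summed levels of 77 mitochondrial ribosomal protein genes were 3120, 3948 and 3730 CPM in wild type 2, 15 and 17, against 4204, 3601 and 3161 in E861A 6, 16 and 19. Those of 22 import genes were 1286, 1706 and 1571 in wild type, against 1723, 1444 and 1271 in E861A. In both lists wild type 2 and E861A 19 were the lowest of their genotype and E861A 6 the highest of all. For assembly factors outside the members, E861A 6 lay below wild type 15, as in the subunit sums, at 1073 against 1102 CPM. The same held for electron carriers with ATP export genes, for chaperones, proteases and antioxidants, and for the citric acid cycle. For biogenesis regulators and mitochondrially encoded subunits E861A 6 was the lowest E861A liver, at 845.8 and 23130 CPM. Because wild type 2 was the only male control, sex and this library cannot be told apart. With sex as a covariate the median log2 fold change of the members was 0.13, and in male livers alone, 1 wild type against 3 E861A, it was 0.14. Both values come from the same contrast with wild type 2 and are not separate checks. In these fits far fewer genes were called at all: 3.21% higher and 0.236% lower with the covariate, and 1.68% and 0.0447% in male livers alone.

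Subunits encoded in mitochondrial DNA were set beside the nuclear ones of the same complexes, without a test of the difference between them. Of 13 such genes 12 were tested, with 6 lower, 0 higher and a median log2 fold change of -0.68. Over all tested genes 4.26% were called lower and 7.77% higher. The called genes were mt-Nd1 (-1.11), mt-Nd4 (-1.06), mt-Nd3 (-1.01), mt-Nd2 (-0.86) and mt-Nd6 (-0.58), membrane-arm subunits of complex I, and mt-Cytb (-0.85), the cytochrome b of complex III. Leaving out wild type 17 left 2 called lower and leaving out E861A 16 left 3. In these 2 fits 0.553% and 0.879% of all tested genes were called lower. A sex covariate left 1, against 0.236% of all tested genes called lower.

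For complex I, mitochondrially encoded subunits summed to 9447, 10310 and 10570 CPM in wild type 2, 15 and 17, against 4297, 5335 and 6106 in E861A 6, 16 and 19. The groups did not overlap. The nuclear subunits summed to 2417, 2962 and 2903 CPM in wild type, against 3185, 2704 and 2356 in E861A, which did overlap. The ratio of mitochondrial to nuclear reads was 3.908, 3.479 and 3.642 in wild type, against 1.349, 1.973 and 2.592 in E861A. Every E861A liver lay below every wild-type liver in this ratio, and an exact permutation test of 3 libraries against 3 cannot give a two-sided p below 0.1.

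Complex III showed a ratio of 2.738, 2.171 and 2.37 in wild type 2, 15 and 17, against 1.13, 1.544 and 2.053 in E861A 6, 16 and 19, again without overlap. Complexes IV and V overlapped, at 10.07 to 10.38 in wild type and 8.031 to 13.21 in E861A for complex IV and at 0.09215 to 0.09917 against 0.0557 to 0.1245 for complex V. Within E861A the order of the libraries in the nuclear subunits, highest in liver 6 and lowest in liver 19, was the opposite of that in the mitochondrially encoded subunits of complex I. Reads from mitochondrial transcripts also depend on how a library was made, and that part was not tested.

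**Figure D5:**
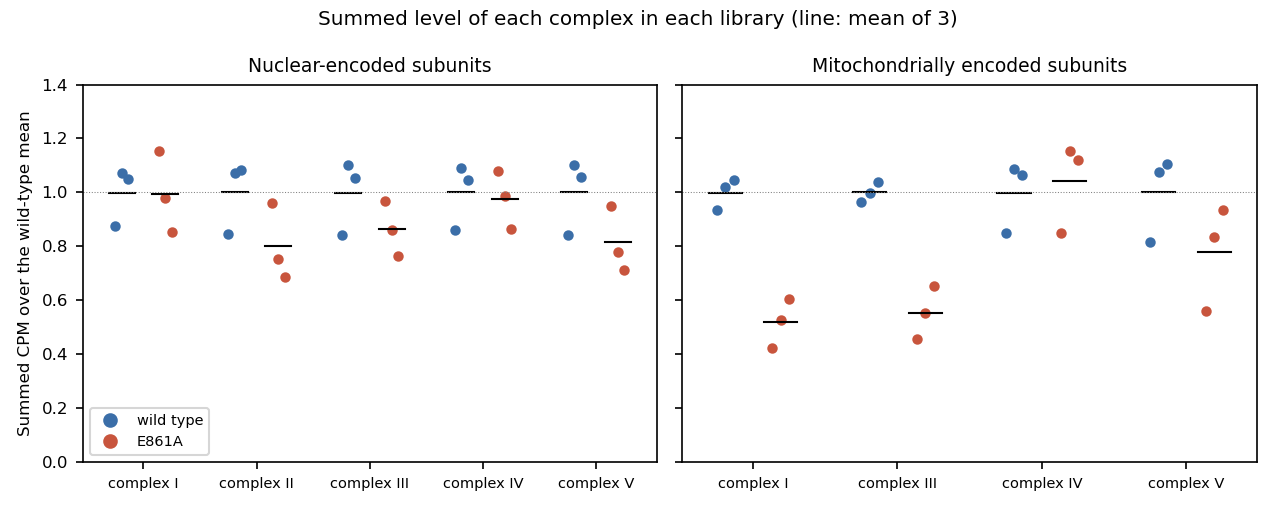
Summed CPM of the subunits of each complex in each of 6 libraries, over the wild-type mean, for nuclear genes and for mitochondrially encoded genes, with a line at the mean of 3. The nuclear sums overlap between genotypes for complexes I to V, whereas the mitochondrially encoded sums of complexes I and III do not.

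Calls in other lists of mitochondrial genes are read against 7.77% of all tested genes called higher and 4.26% lower. The share called lower was 8.96% when wild type 2 was left out and 9.33% with DESeq2. It was 1.15% without wild type 15, 0.553% without wild type 17 and 0.879% without E861A 16. Of 28 tested assembly factors outside the members, 1 was called, Cox18, which inserts a core subunit of complex IV into the membrane, at a log2 fold change of 1.002, a call lost when wild type 17 or E861A 16 was left out. Of 20 electron carrier and ATP export genes and 19 tested import genes, 0 were called by edgeR, with 0 at an unadjusted p under 0.05 in either list, and DESeq2 called 0 in both. When wild type 2 was left out, 1 electron carrier or ATP export gene was called lower. Mitochondrial ribosomal proteins had 1 higher (Mrpl30, 1.20) and 2 lower, with Mrpl34 (-0.89) first, of 75 tested, and 0 of the lower calls were left when wild type 15, wild type 17 or E861A 16 was left out, with 1 left for E861A 19 and 4 called for E861A 6. Mitochondrial chaperones, proteases and antioxidants had 0 of 18 lower by edgeR, but 4 when wild type 2 was left out, 1 when E861A 6 was and 2 with DESeq2. They had 1 higher, Prdx5, a peroxiredoxin, at 0.73, which lost its call when wild type 15, wild type 17 or E861A 16 was left out. Biogenesis regulators had 1 of 18 lower, the transcription factor gene Nrf1 (-0.59, adjusted p = 0.0495, edgeR), which lost its call, leaving 0 in the list, when wild type 15 or 17 or E861A 16 or 19 was left out. The list held 3 lower genes when wild type 2 was left out and 3 with DESeq2.

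The fuel pathways that feed the chain are read against the same background of 7.77% of tested genes called higher and 4.26% lower. The citric acid cycle had 0 higher and 2 lower of 17, Ogdh (-1.13), a subunit of the oxoglutarate dehydrogenase complex, and Pdha1 (-0.88), of the pyruvate dehydrogenase complex, and a median log2 fold change of -0.25. Its count of lower genes was 6 when wild type 2 was left out, 1 for wild type 15, 0 for wild type 17 and 1 for E861A 16. DESeq2 called 5. Glycolysis had 4 of 17 higher, among them Hk2 (1.36), a hexokinase, and 2 lower, with Pfkm (-0.98), a phosphofructokinase, first. Its count of higher genes was 2 when wild type 15 was left out, 1 for wild type 17, 2 for E861A 16 and 6 for E861A 6. DESeq2 called 7, and a sex covariate gave 0, as it did for the citric acid cycle.

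Editing was sparse in the members. The site table lists 23 sites in 12 member genes, and 18 sites in 11 genes had at least 10 reads in each genotype. Of these, 17 were intronic and 1 lay in a 3′ UTR. Summed over the 18 sites, 31 of 724 reads were edited in wild type and 4 of 722 in E861A, with 15 sites at 0 edited reads in E861A. In Fisher's exact tests (two-sided, adjusted over all 3883 tested sites), 0 of the 18 were called and 0 had an unadjusted p under 0.05, against 16.8% of all tested sites called. The 3′ UTR site, in Cox4nb (chromosome 8, 123179543 on NCBIM37), had 5 edited of 84 reads in wild type, 5.95% with a 95% Wilson interval of 2.57 to 13.19%, and 0 of 60 in E861A, where 3 edited reads would make 5% and the Wilson interval reached 6.02%. Uqcrh held 1 intronic site, with 2 edited reads of 101 in wild type and 0 of 98 in E861A. Cox6a2 and Cox4i2 had no listed site. No single site's difference was detectable at this depth, the summed reads were not tested, and the intervals cover counting error only.

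In the authors' deposited table, 88 of the members are listed, 4 of them higher and 1 lower at an adjusted p under 0.05, against 8.44% and 4.84% of its 14484 genes. The higher genes there are Cox6a2 (4.098), Cox4i2 (3.26), Atp5sl (0.57) and Ndufv3 (0.49), and the lower gene is Uqcrh (-0.71), as log2 fold changes in the authors' deposited table.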

How the data were processed

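The 92 members and the gene lists were chosen with earlier results of these data known. The submitters' processing notes name TopHat2 (2.0.8), HTSeq, edgeR and limma among other tools, and the builds mm9 and NCBIM37. Counting settings and strandedness are not given in the sources used here. The authors deposited raw counts per gene, whole numbers of reads. Per the file headers, the site table gives the editing level as a fraction of covering reads, and the authors' table gives log2 fold changes and p-values. Fold changes of that table were multiplied by -1, since their sign was opposite to that of the deposited counts (wild type minus E861A).

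Counts of 6 libraries, 3 per genotype, were compared in edgeR 4.0.16 (R 4.3.3) with filterByExpr, TMM and the robust quasi-likelihood test over 16511 genes, with Benjamini-Hochberg adjustment and a threshold of 0.05. CPM use TMM-scaled totals, the SE was taken from the F statistic, and RPKM use the union of GENCODE M1 exons. Of the members, 19 share an exon base with another gene, over 20% of their exons in 4 of them (Atp5o, Cox5a, Ndufa13, Ndufb6), whose values are uncertain. The genes named in each complex were the called ones (up to 4 a direction), the highest per length, the 2 uncalled ones with the largest fold change, all isoform pairs and all members too low to test, with up to 2 called genes from each other list. Some further genes with their values were named as examples. The 13 alternative fits were other scalings, other filters, DESeq2 1.42.0, sex as a covariate, male livers alone and each library left out. Sex as a covariate and male livers alone were counted as separate fits, though both rest on the contrast with wild type 2. The code was tested on simulated data. For 1 complex I gene, counted in all totals, no value is reported here. Sites were tested with SciPy 1.17.1, with 20 reads in place of 10 as an alternative.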

Additional observations from a re-analysis of the deposited data

How the results depend on the processing

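No paired analysis was possible because no liver number occurs in both genotypes. The 3 higher members became 1 with sex as a covariate and 1 in male livers alone, and 2 to 3 when each library was left out. The 1 lower member became 2 with upper quartile scaling, 4 with at least 1 CPM in 3 libraries and 4 with DESeq2 (backgrounds 5.03, 8.33 and 9.33% lower). It was 0 with sex as a covariate and 0 in male livers alone, and 0 to 3 with a library left out. Cox6a2 kept its call in all 14 fits, with log2 fold changes from 3.78 to 4.97.

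With sex as a covariate and in male livers alone, the median log2 fold change was 0.133 and 0.143 for the members, 0.187 and 0.197 for complex I, -0.153 and -0.143 for complex II, 0.057 and 0.067 for complex III, 0.279 and 0.290 for complex IV and 0.011 and 0.021 for complex V. With a library left out it ran from -0.199 to 0.022 for the members, -0.135 to 0.110 for complex I, -0.510 to -0.307 for complex II, -0.326 to -0.113 for complex III, -0.083 to 0.112 for complex IV and -0.263 to -0.029 for complex V. The cause was not tested.

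Uncalled genes turned sign. In the same 2 fits Cyc1 stood at 0.128 and 0.138, Uqcr11 at 0.035 and 0.045, Cox6a1 at 0.284 and 0.294 and Atp5g1 at 0.212 and 0.222, and Ndufb9 at 0.005 in male livers alone. Cox4i1 was -0.012 with RLE scaling, -0.003 with no filter and -0.012 with DESeq2. With a library left out, Cox4i1 ran from -0.087 to 0.121, Cox6a1 from -0.257 to 0.031, Cox7a2l from -0.113 to 0.114 and Cox8a from -0.059 to 0.188. With at least 20 reads per site, 12 sites were tested and 0 were called, with a lowest adjusted p of 0.238 by Fisher's exact test. The male-only fit assumes that its single wild-type library varies as the E861A group does. With sex as a covariate the fold change also rests on that library. Having 3 livers per genotype limits what could be called.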
